A study of Homo sapiens with 16 samples.

Results

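The late drift of the immune transcriptome after knockdown of PNPase or SUV3 was measured as the difference between day 6 and day 4, in 8 of the 16 samples of the series. The 4 samples of day 6 were paired with the 4 of day 4 within the 4 replicates, as the labels name them, and day 5 is given as the point between. All samples came from OCI-AML2, an established human acute myeloid leukaemia line, grown in medium with serum and transduced with short hairpin RNA constructs. Replicates 545 and 1717 carried the PNPase knockdown and replicates 1595 and 1727 the SUV3 knockdown, each on days 3, 4, 5 and 6. No source used here says what the replicate numbers mean, and they may name hairpins, so that replicate and hairpin cannot be told apart. Every sample carried a knockdown. Control cells were not analysed here, so a change with time in culture and a change that follows the knockdown cannot be told apart.

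PNPase, the product of PNPT1, is a mitochondrial ribonuclease, and SUV3, the product of SUPV3L1, is the RNA helicase that unwinds its substrates. Together they degrade mitochondrial RNA, including the double-stranded RNA that forms when both strands of the mitochondrial genome are transcribed. When such RNA reaches the cytosol it can be bound by sensors such as the product of IFIH1, which signal through IRF3, IRF7 and NF-kappaB to interferon and cytokine genes. The transcripts of PNPT1 and SUPV3L1 were not analysed here, which leaves the depth of each knockdown unknown.

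The panel held 579 genes of immune processes and 15 housekeeping genes, read on the nCounter system, which counts fluorescent barcodes bound to each RNA. Totals over all genes ranged from 315660 to 493370 in the 8 samples. Each sample was divided by its housekeeping factor, the geometric mean of the 15 housekeeping genes, and levels below are scaled log2(value + 1). Of the 594 genes, 310 had deposited values above 12.9, the upper level of the negative control probes, in all 8 samples. The line's myeloid genes CTSG, CSF3R and CSF2RB were above this level in all 8, with deposited values of at least 2221, 553 and 274. The T cell genes CD2, CD3D, CD8A and LCK were above it in none, and CD34, a progenitor marker, in none.

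The sample-wide measures moved between the days. The housekeeping factor was -0.02, 0.26, -0.32 and -0.19 on day 4 in replicates 545, 1717, 1595 and 1727 on the log2 scale, and 0.41, 0.51, -0.01 and 0.10 on day 6. It was higher on day 6 in 4 of 4 replicates, by 0.32 ± 0.08 (SD, n = 4; two-sided exact permutation p = 0.125, the smallest that 4 pairs allow). The spiked positive controls differed by -0.005 ± 0.046 (SD, n = 4) and the negative controls by 0.09 ± 0.80 deposited units (SD, n = 4). Dividing by the housekeeping factor lowers the difference of a gene relative to the deposited values by the replicate's own factor, from 0.25 to 0.43, and by less for weak genes because 1 is added before the logarithm. The median difference of the 240 genes not above the negative controls was -0.16 scaled and 0.10 unscaled, against -0.09 and 0.23 for the 310 genes, and the part of the scale in the results was not tested.

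**Figure D1:**
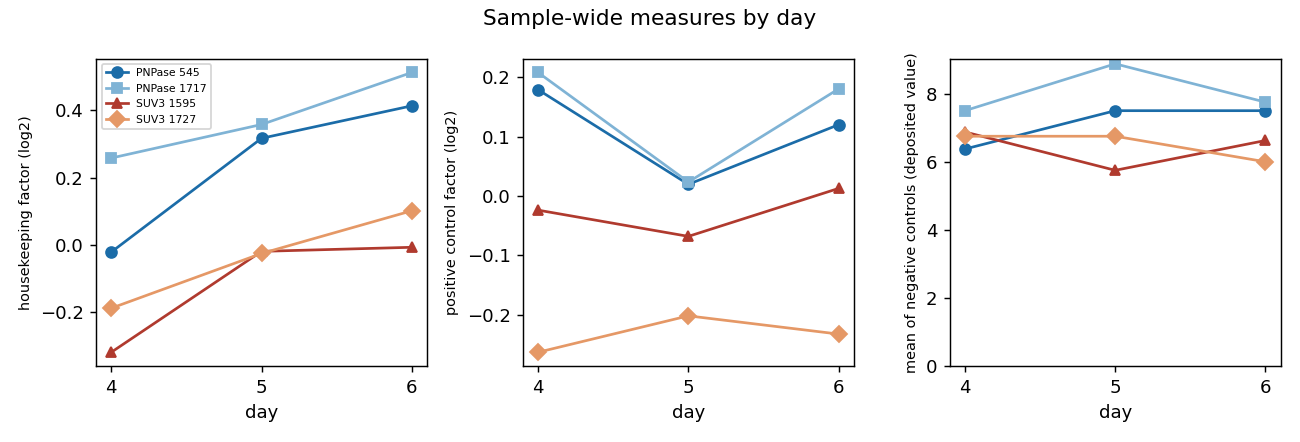
Housekeeping factor (log2), positive control factor (log2) and mean of the negative control probes (deposited value) against day, with 1 line per replicate. The housekeeping factor is higher on day 6 than on day 4 in 4 of 4 replicates, while the positive controls differ by -0.005 on average.

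The first comparison asked which transcripts still changed after day 4, over both knockdowns. The transcription factors EGR1 and IRF7, the cytokine IL32 and the NF-kappaB regulator BCL3 had lower levels on day 6 in all 4 replicates, by 0.56 to 0.95 on average. These were also the only 4 of the 310 genes above the negative controls whose deposited values, with no scaling, were lower on day 6 in all 4 replicates. Without scaling their mean differences were smaller in size, at -0.64 for IRF7, -0.38 for EGR1, -0.26 for IL32 and -0.25 for BCL3. Some single steps in deposited values were small, such as 19 to 16 for EGR1 in replicate 1595. Against a background of 1.29% (4 of 310) for lower deposited values in all 4 replicates, 47.4% (147 of 310) were higher in all 4. On the housekeeping scale 10 of the 310 (3.23%) were higher in all 4. Among these 10, the antimicrobial peptide DEFB1 and the adhesion molecule CEACAM6 had the largest mean differences. None of these genes passed the test across all genes. With limma, 0 of 594 genes passed after adjustment (0%), and the smallest adjusted p was 0.329. At the unadjusted 0.05 level 4 genes were higher (0.673%) and 57 lower (9.60%) on day 6. This balance turned with the scale, to 90 higher and 8 lower without scaling, 89 and 8 with the positive controls and 13 and 29 with the median of ratios. With a line fitted over days 4, 5 and 6, EGR1 (limma adjusted p = 0.0392) and IRF7 (limma adjusted p = 0.0395) passed. So did a gene outside the 64 given with values here. With a trend in the prior variance IL32 passed (limma adjusted p = 0.00766). A random replicate block and a fit of all 16 samples each called 1 gene, also outside the 64.

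IRF7, a transcription factor that drives type I interferon genes, had the largest mean difference among the 12 named genes that were lower. Its level on day 4 was 5.19 and 5.63 in PNPase replicates 545 and 1717, and 6.34 and 6.58 in SUV3 replicates 1595 and 1727. On day 6 it was 4.41, 4.64, 4.91 and 5.97 in the same order. Both SUV3 replicates stood above both PNPase replicates on each day, so that the days overlapped although every replicate was lower on day 6. The mean difference was -0.95 ± 0.17 (SE; limma adjusted p = 0.346), 1.94-fold higher on day 4. Its deposited values were low, at 27 to 83.

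EGR1, an immediate early transcription factor induced by growth and stress signals, was at 6.53, 5.50, 4.63 and 5.51 on day 4 in replicates 545, 1717, 1595 and 1727. On day 6 it was at 5.66, 4.75, 4.09 and 4.90. The replicate with the highest level, 545, and the one with the lowest, 1595, kept these places on both days. The mean difference of -0.69 ± 0.11 (SE; limma adjusted p = 0.346) had the smallest SE relative to its size among the 12 lower genes, with single replicates from -0.87 to -0.53.

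BCL3, an atypical inhibitor protein that binds NF-kappaB subunits in the nucleus, had levels of 5.27, 5.11, 4.47 and 4.99 on day 4 and 4.77, 4.68, 4.01 and 4.15 on day 6. The difference was largest in replicate 1727, at -0.84, and between -0.50 and -0.43 in the others. Its mean was -0.56 ± 0.12 (SE; limma adjusted p = 0.370), with deposited values of 15 to 40, close above the negative controls. On days 4 and 6 these were 37 and 35 in replicate 545, 40 and 35 in 1717, 17 and 15 in 1595, and 27 and 18 in 1727. Whether steps this small exceed the scatter of such values was not tested.

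IL32, a pro-inflammatory cytokine, was the most abundant of the named genes, with deposited values of 27744 to 59762. Its level was 15.80, 15.61, 15.62 and 15.26 on day 4 and 15.20, 15.21, 14.77 and 14.76 on day 6. On the housekeeping scale every day 6 sample lay below every day 4 sample, whereas the deposited values of the days overlapped. The mean difference was -0.59 ± 0.12 (SE; limma adjusted p = 0.370), 1.50-fold higher on day 4. Among all genes, 12 had day 6 samples entirely below the day 4 samples (2.02%) and 0 entirely above (0%). Of these 12, 8 had mean deposited values of 5.50 to 12.1, around the negative controls. The other 4 were IL32, RELB, IFNAR2 and LTBR, the last 2 being named after their values were seen. For 3 of these the order of the days rested on the scaling. Deposited values of LTBR were higher on day 6 in every replicate, and those of IFNAR2 in 545, 1595 and 1727. RELB had a mean difference of -0.02 without scaling.

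The promoter sequences of EGR1, BCL3 and IL32 are shown because these genes were lower in all 4 replicates with and without scaling. Their differences were smaller without it. Of the 310 genes only IRF7 did the same. Other genes, such as GPR183 at -0.36, kept a lower mean without scaling, but not in every replicate. The sequences are those of RefSeq on GRCh38.p14, 250 bases before to 50 after the annotated start, from 5′ to 3′ on the plus strand. They lie at chr5:138465229-138465528, chr19:44748458-44748757 and, for the first of 2 entries, chr16:3065153-3065452. Capitals mark matches on either strand to the CArG box, the site of serum response factor, or to the NF-kappaB site, both searched by their usual consensus. In IL32 2 overlapping matches on opposite strands were merged. The ISRE, the interferon response element searched as GAAANNGAAA, gave no match in these windows. The second IL32 entry, at chr16:3065534-3065833, is not shown and held no match to any of these motifs.
EGR1: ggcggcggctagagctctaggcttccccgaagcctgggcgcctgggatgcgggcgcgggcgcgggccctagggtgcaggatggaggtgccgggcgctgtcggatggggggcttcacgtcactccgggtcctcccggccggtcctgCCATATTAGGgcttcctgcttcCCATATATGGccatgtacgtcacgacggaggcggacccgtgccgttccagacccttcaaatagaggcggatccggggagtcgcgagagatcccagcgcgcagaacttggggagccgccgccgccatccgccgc
BCL3: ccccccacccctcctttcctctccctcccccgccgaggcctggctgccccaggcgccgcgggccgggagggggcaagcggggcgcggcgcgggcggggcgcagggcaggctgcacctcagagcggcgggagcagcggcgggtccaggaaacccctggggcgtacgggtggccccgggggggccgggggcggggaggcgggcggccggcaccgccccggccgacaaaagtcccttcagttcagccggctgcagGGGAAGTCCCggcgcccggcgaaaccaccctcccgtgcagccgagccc
IL32: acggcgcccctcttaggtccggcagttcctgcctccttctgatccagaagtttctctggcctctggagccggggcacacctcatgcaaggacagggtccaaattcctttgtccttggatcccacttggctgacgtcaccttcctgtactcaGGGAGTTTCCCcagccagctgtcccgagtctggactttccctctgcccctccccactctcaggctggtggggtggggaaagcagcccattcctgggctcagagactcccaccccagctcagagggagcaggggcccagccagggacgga
EGR1 held 2 CArG boxes, 105 and 83 bases before the start. Of the 35116 promoters of the table, 1.29% held a CArG box, 5.91% an NF-kappaB site and 3.57% an ISRE. These matches describe the letters and say nothing of binding in these cells.

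Among surface and signalling genes, GPR183, an oxysterol receptor that guides leukocyte migration, was lower by 0.37 to 1.04 in the 4 replicates, with a mean of -0.67 ± 0.15 (SE). CD44, the hyaluronan receptor used by leukaemic and normal progenitors for adhesion, was at 10.96, 11.59, 10.93 and 10.41 on day 4 and at 10.57, 11.29, 10.53 and 9.71 on day 6. Its days overlapped, with replicate 1717 highest and 1727 lowest on both. The tetraspanin CD53 differed by -0.39 ± 0.12 (SE), the Janus kinase TYK2 by -0.39 ± 0.12 (SE) and the neonatal Fc receptor FCGRT by -0.49 ± 0.16 (SE). Without scaling the means were -0.12 for CD44, -0.07 for CD53, -0.07 for TYK2 and -0.17 for FCGRT. Sensors and an adaptor of microbial products were named too: TLR8, an endosomal sensor of single-stranded RNA, at -0.64 ± 0.20 (SE), NOD2, which reads bacterial cell wall fragments, at -0.55 ± 0.16 (SE), and TIRAP, which links toll-like receptors to MYD88, at -0.45 ± 0.12 (SE). Their means without scaling were -0.33, -0.24 and -0.14, and that of GPR183 was -0.36. None of the genes named in this paragraph was lower in all 4 replicates without scaling. The limma adjusted p of the 12 named lower genes lay between 0.346 and 0.436. For TLR8, NOD2 and FCGRT the difference was small in SUV3 replicate 1727, between -0.09 and -0.03, and at least 0.47 in size in each of the others. On day 5 the mean level of 11 of the 12 lay between those of days 4 and 6.

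On the other side 10 genes above the negative controls were higher on day 6 in all 4 replicates (3.23% of 310), against 73 that were lower (23.5%). CEACAM6, an adhesion molecule of granulocytes, was at 9.22, 9.89, 9.24 and 9.66 on day 4 and at 9.74, 9.96, 9.60 and 10.37 on day 6. The highest sample was replicate 1727 on day 6, and the days overlapped. The mean difference was 0.42 ± 0.14 (SE; limma adjusted p = 0.436), 1.34-fold higher on day 6. DEFB1 had a mean difference of 0.71 ± 0.32 (SE; limma adjusted p = 0.479), of which replicate 1727 gave the most. There it was 7.56 on day 4 and 9.41 on day 6, in deposited values 165 and 729, whereas replicate 1717 was at 6.25 and 6.26. Without replicate 1727 the mean was 0.33. CXCR2, a chemokine receptor that binds IL8, differed by 0.23 ± 0.14 (SE), and CD70, the ligand of CD27, by 0.21 ± 0.10 (SE). The pro-apoptotic BAX, the glucocorticoid-induced co-chaperone FKBP5 and the cytokine MIF differed by 0.08 to 0.12. TUBB, PPIA and OAZ1 completed the 10, but they belong to the housekeeping genes that set the scale. The limma adjusted p of these 10 lay between 0.436 and 0.831.

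**Figure D2:**
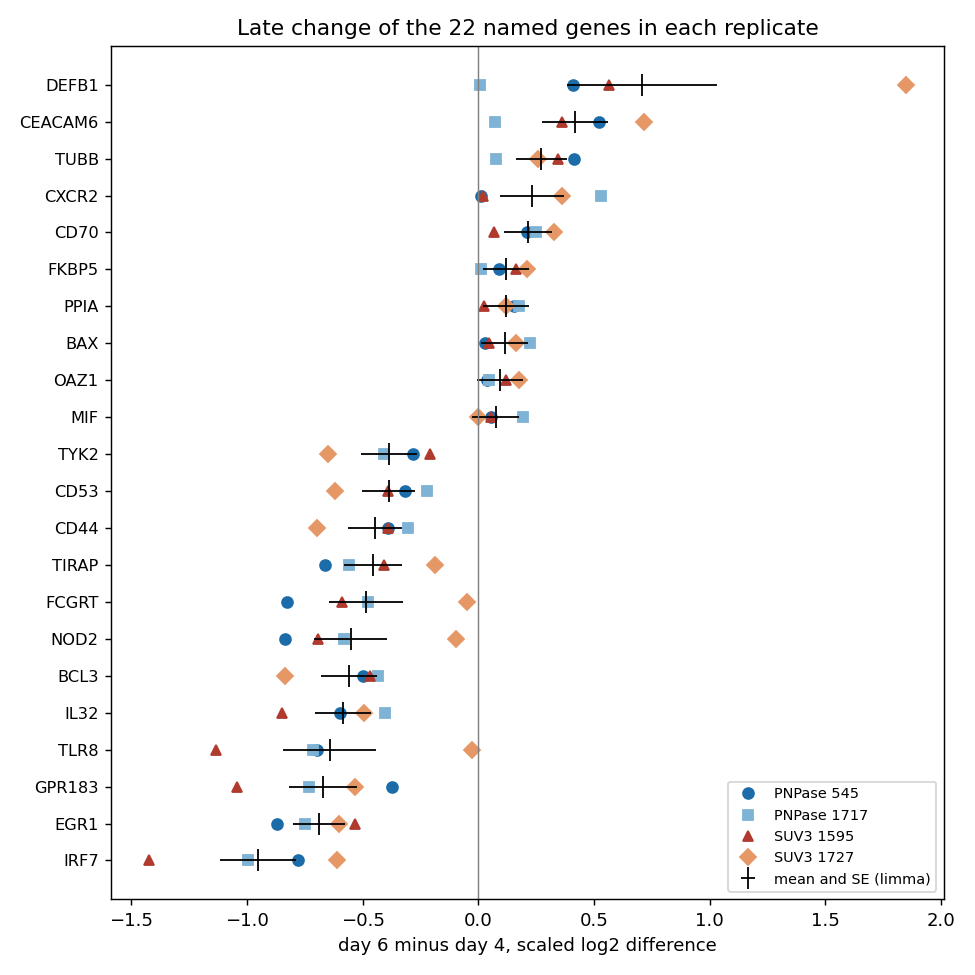
Difference of day 6 minus day 4 in scaled log2 units for the 22 named genes, with 1 symbol per replicate and the mean with its limma SE as a black line. The 12 lower genes have all 4 replicates below 0, from -1.42 for IRF7 in replicate 1595 to -0.03 for TLR8 in replicate 1727, and replicate 1727 stands far to the right for DEFB1. Without scaling 4 of the 12 were lower in all 4 replicates.

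The balance of lower and higher genes depended on how samples were scaled. Scaled by the housekeeping genes, the 594 genes had a median difference of -0.11, and 107 genes were lower (18.0%) and 17 higher (2.86%) on day 6 in all 4 replicates. Without scaling the median was 0.19, with 9 lower (1.52%) and 167 higher (28.1%). With the housekeeping scale but without SUV3 replicate 1727, 210 were lower and 28 higher in the 3 left. Scaling by the median of ratios, which centres the panel on itself, gave a median of -2e-04, with 60 lower and 54 higher. A scaling moves all genes of a sample nearly alike, so a difference relative to the median of all genes is almost fixed by construction and is given as a description only. It was between -0.84 and -0.83 for IRF7, between -0.58 and -0.57 for EGR1, between -0.47 and -0.46 for IL32, between 0.53 and 0.55 for CEACAM6 and between 0.82 and 0.83 for DEFB1. Of the 95 genes that the rule for named genes selects, 45 turned in direction without scaling.

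The replicates shared little of their late change. Over the 310 genes above the negative controls, which are not independent replicates, the differences of replicates 545 and 1595 correlated at 0.45 (Pearson), those of 1717 and 1595 at 0.26 and those of 545 and 1717 at 0.11. SUV3 replicate 1727 correlated with the other 3 at -0.02 to 0.09, less with its own knockdown partner 1595 (0.05) than 1595 did with either PNPase replicate. These pairs share the scale set by the same 15 housekeeping genes. In replicate 1727 328 genes were higher on day 6 and 266 lower, whereas 392 to 431 were lower in each of the other 3. The SD of the differences over the 310 genes was 0.31, 0.33, 0.34 and 0.39 in replicates 545, 1717, 1595 and 1727.

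Interferon-stimulated genes were described next, because IRF7 belongs to them. All 23 listed were measured and 15 lay above the negative controls in all 8 samples. Of these 15, 5 were lower on day 6 in all 4 replicates and 0 higher, where 23.5% of the 310 genes were lower. None passed the test. Their median difference was -0.24, against -0.09 for the 310 genes, and was negative in each replicate, from -0.42 in 1595 to -0.15 in 1727. Without scaling the median was 0.08, against 0.23 for the 310 genes. IFITM1, a membrane protein that blocks viral entry, was at 6.69, 5.97, 6.62 and 6.61 on day 4 and at 5.24, 6.12, 4.53 and 5.52 on day 6. Replicate 1717 thus went against the other 3, and the mean was -1.12 ± 0.38 (SE; limma adjusted p = 0.436). MX1, an antiviral GTPase, was lower in all 4, by 0.95 and 1.46 in replicates 545 and 1595 but by 0.15 and 0.20 in 1717 and 1727. BST2, which tethers virus particles to the cell surface, was lower by 0.56 to 0.78 in 3 replicates and higher by 0.14 in 1727. In the list of nucleic acid sensing and interferon signalling, 6 of 20 genes were lower in all 4 replicates and 0 higher, against 23.5% and 3.23% of the 310 genes, with a median of -0.11 (0.22 without scaling). MYD88, the adaptor of most toll-like receptors, was among the 6 at -0.24 ± 0.10 (SE), but at 0.08 without scaling.

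**Figure D3:**
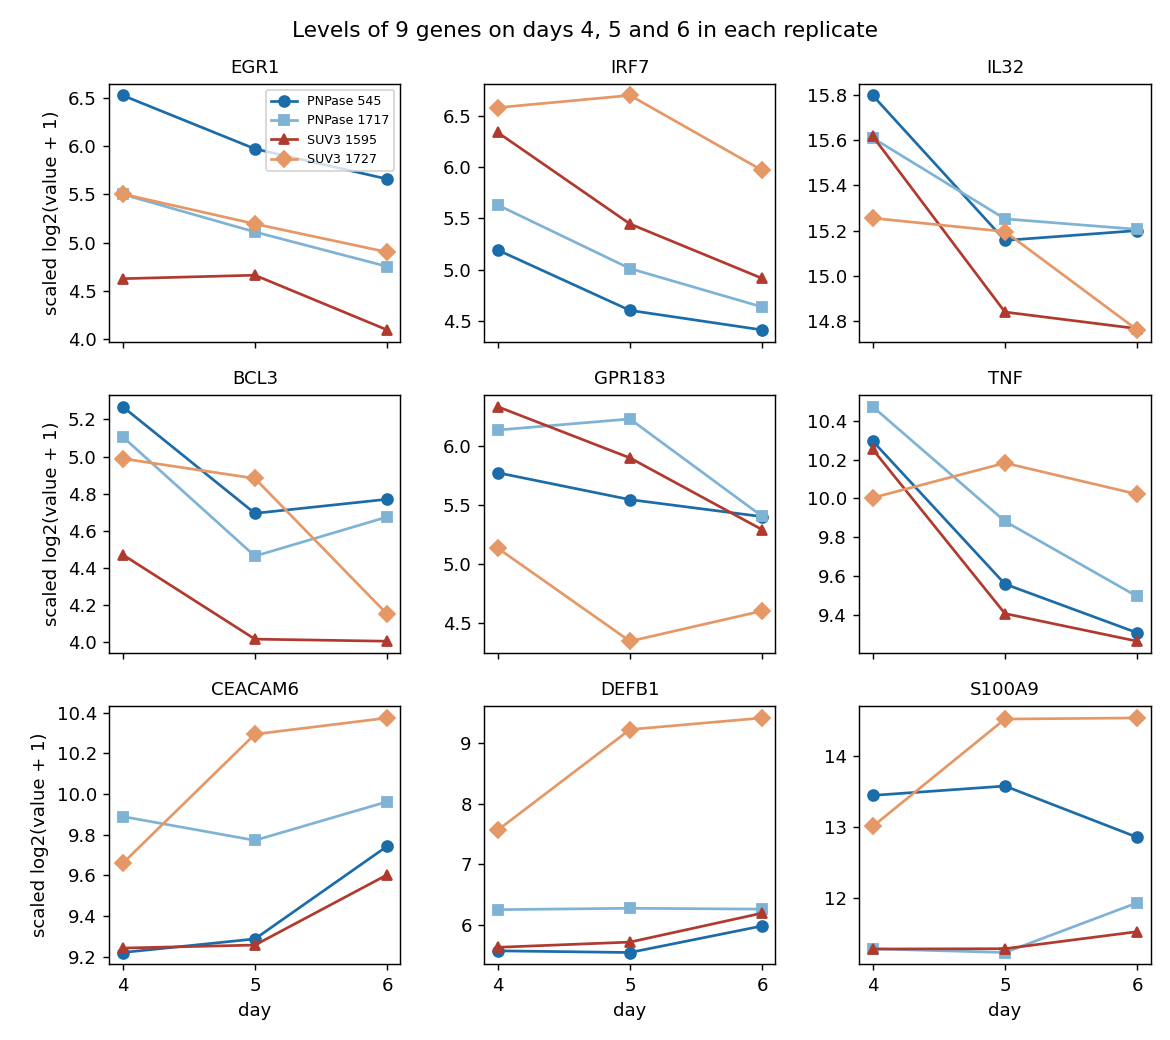
Scaled log2(value + 1) of 9 genes on days 4, 5 and 6, with 1 line per replicate. IRF7, EGR1, BCL3, GPR183 and IL32 end lower than they start in 4 of 4 replicates, TNF in 3 of 4, and S100A9 takes different courses in the replicates, ending between 11.52 and 14.54.

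NF-kappaB genes and the cytokines they control were compared in the same way. Of 17 genes of the NF-kappaB pathway above the negative controls 8 were lower on day 6 in all 4 replicates and 0 higher, where 23.5% of the 310 genes were lower. None passed the test. Their median was -0.14, against -0.09 for the 310 genes, and without scaling it was 0.18. RELB and NFKB2, the subunits of the alternative pathway, differed by -0.34 ± 0.13 (SE) and -0.30 ± 0.11 (SE), and NFKB2 by 0.02 without scaling. RELB was at 5.78 to 6.18 on day 4 and at 5.30 to 5.73 on day 6, with no overlap on this scale. Its mean difference was -0.02 without scaling. Among 12 cytokines and chemokines 2 were lower and 1 higher in all 4, with a median of -0.18 (0.14 without scaling). TNF, a central inflammatory cytokine, was at 10.30, 10.47, 10.25 and 10.00 on day 4 and at 9.31, 9.49, 9.26 and 10.02 on day 6. Replicates 545, 1717 and 1595 were thus lower by 0.98 to 0.99, while 1727 differed by 0.02. IL8 and IL1B had the same arrangement: IL8, which attracts neutrophils, was lower by 0.54 to 1.12 in the 3 and higher by 0.37 in 1727, and IL1B lower by 0.65 to 0.92 and higher by 0.62. Their means, -0.54 ± 0.27 (SE) and -0.46 ± 0.30 (SE), did not pass. Of 9 early response and stress genes 3 were lower and 1 higher in all 4 replicates, with a median of -0.17 (0.14 without scaling). NFIL3, a basic leucine zipper repressor, differed by -0.29 ± 0.10 (SE) but by 0.03 without scaling, and PTGS2, the inducible cyclooxygenase, ranged from -1.54 in 1595 to 0.40 in 1727.

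Antigen presentation genes of class I and class II were described separately. For these and the lists that follow, 23.5% of the 310 genes were lower and 3.23% higher in all 4 replicates, and their median was -0.09 (0.23 without scaling). Of 12 class I genes 1 was lower and 0 higher in all 4, with a median of -0.01 (0.32 without scaling). TAP1, of the peptide transporter, was that gene, at -0.13 ± 0.10 (SE) but above 0 without scaling, while HLA-B ranged from -0.40 to 0.38 over the replicates. PSMB9, an immunoproteasome subunit, differed by 0.19 ± 0.15 (SE). Among class II genes 7 exceeded the negative controls in all 8 samples, with 1 lower in all 4 and 0 higher. Their median of -0.25 turned to 0.06 without scaling. HLA-DRA was at 5.85, 5.75, 7.71 and 7.27 on day 4 and at 5.32, 4.59, 6.59 and 7.82 on day 6, higher on day 6 in replicate 1727 only. HLA-DOB, of the accessory molecule that tunes peptide loading, was lower in all 4, at -0.32 ± 0.12 (SE), but not with the positive controls, where its mean was 0.003. HLA-DMB, of the molecule that catalyses loading, was lower by 1.04 and 1.05 in the PNPase replicates and differed by -0.12 and 0.12 in the SUV3 replicates.

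Differentiation and granule genes took separate courses in the replicates. Of 9 alarmin and granule genes 0 were lower and 1 higher in all 4, with a median of 0.02 (0.34 without scaling). S100A8 and S100A9, the paired alarmins of neutrophils and monocytes, are among the abundant transcripts of the line. S100A9 was at 13.45, 11.28, 11.28 and 13.01 on day 4 and at 12.86, 11.93, 11.52 and 14.54 on day 6. It was highest in 545 on day 4 and in 1727 on day 6. S100A8 differed by -0.76, 0.61, 0.01 and 1.37 in the same order. The errors of the means, 0.36 for each, were as large as or close to the differences of 0.31 for S100A8 and 0.46 for S100A9. Without replicate 1727 the mean of S100A8 was -0.05. CD14, the monocyte coreceptor of endotoxin, was lower by 0.75 in 545 and higher by 0.71, 0.13 and 0.84 in the others, with deposited values of 11 to 60 that reach the negative controls. ITGAM, the integrin chain CD11b, differed by 0.08, -0.73, -0.74 and 0.38, with deposited values of 10 to 37. The galectin LGALS3 was lower by 1.11, 1.31 and 0.38 in replicates 545, 1595 and 1727 and differed by 0.04 in 1717. Of 22 myeloid markers above the negative controls 4 were lower and 0 higher in all 4, a share below that of the 310 genes. Their median was -0.11 (0.22 without scaling), close to that of the 310 genes. FCGR1A/B, the high-affinity receptor for IgG, was 1 of the 4, at -0.36 ± 0.13 (SE), but at -0.04 without scaling. In bulk samples fewer cells of a type and less RNA per cell cannot be told apart.

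The p53 and apoptosis genes had a median of -0.12 over 15 members (0.20 without scaling), with 3 lower and 1 higher in all 4, where 23.5% and 3.23% of the 310 genes were. MCL1, a survival protein of the BCL2 family, differed by -0.25 ± 0.10 (SE) and BCL2L11, its pro-apoptotic counterpart BIM, by -0.23 ± 0.10 (SE). Both were lower in all 4 replicates on the housekeeping scale, but without scaling their means turned to 0.07 and 0.09. BAX was the higher one. CDKN1A, the p53-induced inhibitor of the cell cycle, ranged from -1.05 in 1595 to 0.50 in 1717. The 15 metabolism and growth genes had a median of -0.05 (0.27 without scaling). The iron receptor TFRC differed by 0.06 ± 0.10 (SE), C1QBP, a mitochondrial matrix protein, by 0.02 ± 0.10 (SE) and the cyclin CCND3 by -0.09 ± 0.11 (SE), or 0.23 without scaling. Differences smaller than these errors could not be resolved. Of the 15 housekeeping genes 3 were higher and 2 lower in all 4. EEF1G, a translation elongation factor, was 1 of the 2 at -0.22 ± 0.12 (SE), and POLR1B, a subunit of RNA polymerase I, differed by -0.06 ± 0.10 (SE). Without scaling they differed by 0.11 and 0.26.

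Ligands of immune-mediated killing had a median of -0.01 over 12 members (0.31 without scaling), with 2 lower and 0 higher in all 4, against 23.5% and 3.23% of the 310 genes. CD58, the ligand of CD2 on T and NK cells, was lower in all 4, at -0.25 ± 0.10 (SE), but at 0.07 without scaling. The 8 stem and progenitor genes had a median of -0.11 (0.21 without scaling), with 3 lower in all 4. RUNX1, a transcription factor of blood formation, was among the 3 at -0.14 ± 0.10 (SE), but at 0.18 without scaling. The 7 genes of TGF-beta signalling had a median of -0.15 (0.17 without scaling), with 2 lower in all 4. SMAD3, which was lower in 3 replicates, differed by -0.39 ± 0.16 (SE), but by -0.07 without scaling. The 7 proteasome subunits had a median of -0.03 (0.29 without scaling) and none in 1 direction in all 4. In all 8 samples, 1 of 24 T and NK cell markers and 2 of 9 B cell markers exceeded the negative controls. Their summed scaled values were 287 to 388 on day 4 and 266 to 491 on day 6 for T and NK cell markers, of which CD4, the 1 above the negative controls, is also expressed by myeloid cells. For B cell markers the sums were 170 to 207 and 141 to 175. The part of these in the results was not tested.

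**Figure D4:**
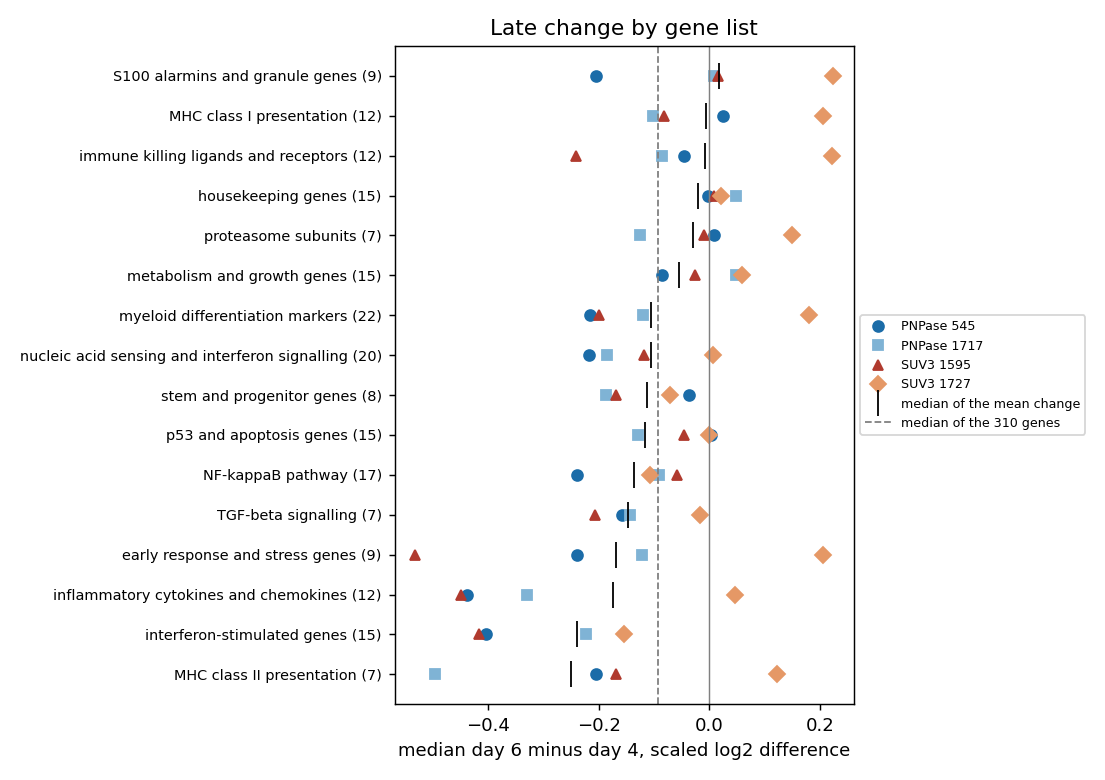
Median difference of day 6 minus day 4 in scaled log2 units over the genes of each list above the negative controls in all 8 samples (number in brackets), with 1 symbol per replicate and a black line for the median of the mean differences. The dashed line marks the median of the 310 genes, -0.09, and replicate 1727 lies above 0 for the class II, cytokine, early response, myeloid and granule lists, among others. Without scaling the median of each list was above 0.

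The last comparison asked whether the late change differed between the knockdowns. With the interaction term of limma 0 of 594 genes passed (0%), 28 lay under 0.05 before adjustment (4.71%), and the smallest p after it was 0.489. Within PNPase knockdown 0 genes passed (0%), with 38 lower (6.40%) and 7 higher (1.18%) at an unadjusted p below 0.05. Within SUV3 knockdown 0 passed (0%), with 22 lower (3.70%) and 9 higher (1.52%). Both PNPase replicates went one way and both SUV3 replicates the other for 62 genes (10.4%).

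IL6ST, the shared signalling receptor of the interleukin-6 family, had the smallest p among named genes with opposite mean changes. It was at 6.36 and 6.45 on day 4 and 6.19 and 6.14 on day 6 in the PNPase replicates, and at 6.50 and 7.54 on day 4 and 6.88 and 8.04 on day 6 in the SUV3 replicates. The difference of the changes was -0.67 ± 0.23 (SE), PNPase minus SUV3. IL1RAP, the accessory receptor of interleukin-1 that leukaemic progenitors also carry, was lower by 0.63 and 0.45 after PNPase knockdown and differed by -0.01 and 0.16 after SUV3 knockdown. The CD45R0 probe, for an isoform of the leukocyte phosphatase PTPRC, gave -0.55 and -0.37 against 0.00 and 0.26. On the other side the complement component C5 differed by 0.10 and 0.09 against -0.73 and -0.23, PRDM1, a repressor that ends proliferation in lymphocytes, by -0.10 and 0.48 against -0.27 and -0.63, and the growth factor receptor PDGFRB by 0.54 and 0.80 against 0.37 and -0.45. The limma adjusted p for the difference was 0.999 for these 6 and 0.830 for HLA-DMB, at -1.04 ± 0.24 (SE). For IRF7 the changes were -0.89 after PNPase and -1.02 after SUV3 knockdown and for EGR1 -0.81 and -0.57, with differences of 0.13 ± 0.37 (SE) and -0.24 ± 0.23 (SE). With 2 residual degrees of freedom, differences of this size between the knockdowns could not be resolved.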

How the data were processed

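Immune transcripts of OCI-AML2 cells were read on the nCounter Human Immunology v2 panel. The deposited values are a score, and no source used here describes how they were made. The file name alone says that the authors removed unwanted variation. They were whole and scattered like unscaled counts (variance 1.06 times the mean for the 171 genes with means of 3 to 8), and both deposited tables were identical for 594 genes. Each sample was divided by the geometric mean of 15 housekeeping genes and log2(value + 1) was taken, which understates changes of weak genes.

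Day 6 was compared with day 4 with limma 3.58.1 (lmFit, eBayes) in R 4.3.3 over all 594 genes, with Benjamini-Hochberg adjustment, a threshold of 0.05 and the replicate as a block, which left 3 residual degrees of freedom. The series' design text states that each replicate was sampled on each day. Deviations from the knockdown mean correlated between days 4 and 6 at 0.76 for PNPase and 0.80 for SUV3 over 310 genes. A knockdown-by-day term tested the difference between knockdowns. The fit was tested on simulated data. Beyond the word biological in the design text nothing says that replicates were separate cultures, so p-values measure the spread between these samples.

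Negative controls averaged 6.80 with an SD of 3.05. Their mean plus 2 SD was the upper level, which limits precision for weak genes. Named genes were up to 12 on each side by adjusted p or, where these were lacking, genes in 1 direction in all 4 replicates and above the negative controls in all 8 samples in order of p, up to 6 on each side for the knockdowns, up to 4 members of each list, and 18 others. This rule selects 95 genes, of which 64 are given with values. These 64 were picked after the values were seen, in part to leave out small differences whose direction turned with the scaling, and counts over all 95 stand in the closing section. Some genes are not reported here. The comparison, the lists and the genes were chosen with earlier results of these data known. Gene symbols are those of the files. Scaling, background, pseudocount, block, samples in the fit, prior variance and left-out replicates were varied.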

Additional observations from a re-analysis of the deposited data

Results flagged for a closer look

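Among all 95 genes that the rule selects, 6 had 1 replicate whose late change lay far from the other 3, where chance gives about 1 in 20. BCL3 differed by -0.84 in SUV3 replicate 1727, against -0.50 to -0.43 in the others. FCGR1A/B differed by -0.70 in PNPase replicate 1717, against -0.28 to -0.21. NFKB2 differed by -0.49 in PNPase replicate 545, against -0.26 to -0.22. TNF differed by 0.0186 in SUV3 replicate 1727, against -0.99 to -0.98. ICAM2, an adhesion ligand of leukocytes, differed by -0.74 in SUV3 replicate 1727, against -0.10 to -0.05. POU2F2, a transcription factor of B cells that this line also expressed above the negative controls, differed by -0.50 in SUV3 replicate 1727, against -0.04 to 0.05.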

How the results depend on the processing

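No gene passed over both knockdowns with limma in the fits on other scales, with the controls subtracted, with a filter, with a pseudocount of 10 or without any single replicate (count 0 throughout). Without the replicate block the count was also 0, with a smallest adjusted p of 0.716, and with days 4 to 6 in 1 fit and the replicate block it was 0 at 0.0577. The count was 1 with a random replicate block, 1 with all 16 samples in 1 fit and the replicate block, 3 with a line over days 4 to 6 and the replicate block, and 1 with a trend in the prior variance. The line called EGR1 at -0.69 (limma adjusted p = 0.0392) and IRF7 at -0.95 (limma adjusted p = 0.0395), and the trend called IL32 at -0.59 (limma adjusted p = 0.00766). The other gene of the line lay outside the 64 genes given with values. So did those called by the random block and by all 16 samples. The difference between knockdowns gave 2 genes with the controls subtracted, 1 with days 4 to 6 in 1 fit and 1 with the line, and SUV3 knockdown gave 1 with the controls subtracted and 1 with the trend. The 107 genes lower in all replicates became 9 without scaling, 60 with the median of ratios, 13 with the positive controls, 71 with the controls subtracted and 131 to 210 without 1 replicate, the highest without SUV3 replicate 1727. The 17 higher genes became 167, 54, 180, 16, and 28 to 42 in the same order, and 11 with the filter. The higher housekeeping factor on day 6 stayed between 0.28 and 0.34 without any 1 replicate. Over all 95 selected genes, 45 turned in direction without scaling, 46 with the positive controls and 10 with the median of ratios. Why the housekeeping factor was higher on day 6 was not tested. Of the 64 reported here, those that turned without scaling (20 genes) were at these differences: NFKB2 0.017, NFIL3 0.033, ITGAM 0.056, CD58 0.066, MCL1 0.070, ICAM2 0.077, MYD88 0.080, BCL2L11 0.087, IL1RAP 0.09, EEF1G 0.11, C5 0.12, CD45R0 0.16, RUNX1 0.18, PRDM1 0.18, TAP1 0.18, CDKN1A 0.19, POU2F2 0.20, CCND3 0.23, POLR1B 0.26, HLA-B 0.26. With the positive controls (21 genes) they were: HLA-DOB 0.003, NFKB2 0.022, NFIL3 0.038, ITGAM 0.062, CD58 0.071, MCL1 0.075, ICAM2 0.081, MYD88 0.084, BCL2L11 0.091, IL1RAP 0.095, EEF1G 0.11, C5 0.12, CD45R0 0.16, RUNX1 0.18, PRDM1 0.19, TAP1 0.19, CDKN1A 0.20, POU2F2 0.20, CCND3 0.24, POLR1B 0.26, HLA-B 0.27. With the median of ratios they were CCND3 0.028, POLR1B 0.053, HLA-B 0.056. Leaving out 1 replicate turned 7 of the 64, over ranges of -0.014 to 0.045 for C1QBP, -0.034 to 0.23 for IL6ST, -0.046 to 0.67 for S100A8 and -0.17 to 0.0096 for POU2F2, each turning without SUV3 replicate 1727. PRDM1 ranged from -0.33 to 0.036, also turning there, CDKN1A from -0.34 to 0.18, turning without SUV3 replicate 1595, and HLA-B from -0.21 to 0.053, turning without 1595 or PNPase replicate 1717. With 4 replicates, 3 residual degrees of freedom and weak genes near the negative controls, small differences could not be resolved.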
